A study of Mus musculus with 4 samples.

Results

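The insulin-like growth factor (IGF) axis was described here by 9 mouse genes, out of 21887 protein-coding genes on assembled chromosomes. They were the ligand genes Igf1 and Igf2, the receptor gene Igf1r, and the binding protein genes Igfbp2, Igfbp3, Igfbp4, Igfbp5, Igfbp6 and Igfbp7. The genes were chosen by name, and every RNA polymerase II (Pol II) peak inside a gene or within 5 kb of its boundaries was assigned to it. Pol II occupancy came from ChIP-seq, which sequences the DNA that an antibody against the protein pulls down from fixed chromatin. The cells were primary osteoblasts labelled young, obtained by keeping stromal cells of mouse bone in osteogenic medium. One Pol II library came from OSS_128167 treated cells and 1 from cells whose title names WT and no treatment, called untreated here. OSS_128167 inhibits SIRT6, a chromatin deacylase. The labels give neither its dose nor its duration, and their treatment field names it for all 4 samples, so the untreated group rests on the title. Each condition had 1 library, so the lists were not tested against each other, and every difference is one between 2 libraries.

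IGF-1 and IGF-2 are secreted growth factors that act through a receptor tyrosine kinase, the product of Igf1r, and through it on the PI3K and AKT kinases. Most of the extracellular ligand is held by IGF binding proteins, which extend its life, carry it, and give or withhold it at the receptor. Osteoblasts secrete IGFs and several binding proteins, and bone matrix stores both. In mouse heart, SIRT6 is known to be brought by the AP-1 factor c-Jun to genes of IGF signalling, where it removes acetyl groups from histone H3 and lowers their transcription.

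The 5 start windows of Igf1, Igf1r, Igfbp2 and Igfbp4 are shown, since these were the members with an OSS_128167 peak and none of the windows had one. Each sequence runs 5′ to 3′ from 250 bases before to 50 bases after a transcript start of the RefSeq start table (GRCm38.p6), and capitals mark the letters of the motifs searched. Igf1 lies at chr10:87860861-87861160 on the plus strand, and holds AP-1 letters of a looser form, TGAATCA, and, on the other strand, a CCAAT box. Igf1r lies at chr7:67952007-67952306 on the plus strand and holds GC boxes. The first start of Igfbp2 lies at chr1:72824230-72824529 on the plus strand and holds GC boxes, and the second lies at chr1:72825137-72825436 and holds AP-1 letters. Igfbp4 lies at chr11:99040994-99041293 on the plus strand and holds a TATA box.
Igf1: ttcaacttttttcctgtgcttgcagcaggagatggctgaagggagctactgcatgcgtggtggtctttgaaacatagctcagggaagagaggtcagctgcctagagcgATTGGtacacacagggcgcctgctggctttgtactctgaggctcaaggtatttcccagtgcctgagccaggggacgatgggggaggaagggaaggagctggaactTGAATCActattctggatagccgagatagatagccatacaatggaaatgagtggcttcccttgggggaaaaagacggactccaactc
Igf1r: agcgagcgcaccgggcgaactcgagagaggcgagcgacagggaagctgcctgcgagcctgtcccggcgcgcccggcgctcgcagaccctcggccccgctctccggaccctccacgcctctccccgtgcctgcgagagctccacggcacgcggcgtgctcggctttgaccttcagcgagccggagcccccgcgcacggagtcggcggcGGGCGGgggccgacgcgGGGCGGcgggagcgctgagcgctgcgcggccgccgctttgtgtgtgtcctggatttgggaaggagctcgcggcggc
Igfbp2, first start: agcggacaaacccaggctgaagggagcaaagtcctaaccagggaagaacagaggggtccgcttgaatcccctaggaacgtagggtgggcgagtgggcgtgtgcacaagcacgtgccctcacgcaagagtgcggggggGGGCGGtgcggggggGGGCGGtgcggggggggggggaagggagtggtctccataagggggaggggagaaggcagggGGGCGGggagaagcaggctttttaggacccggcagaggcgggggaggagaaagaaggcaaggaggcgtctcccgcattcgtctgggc
Igfbp2, second start: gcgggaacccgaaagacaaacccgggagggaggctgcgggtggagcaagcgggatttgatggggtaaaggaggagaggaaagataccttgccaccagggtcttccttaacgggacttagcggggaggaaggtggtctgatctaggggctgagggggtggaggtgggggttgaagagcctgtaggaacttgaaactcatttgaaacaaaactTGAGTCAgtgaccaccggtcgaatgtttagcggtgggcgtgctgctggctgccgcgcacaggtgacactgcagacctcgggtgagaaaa
Igfbp4: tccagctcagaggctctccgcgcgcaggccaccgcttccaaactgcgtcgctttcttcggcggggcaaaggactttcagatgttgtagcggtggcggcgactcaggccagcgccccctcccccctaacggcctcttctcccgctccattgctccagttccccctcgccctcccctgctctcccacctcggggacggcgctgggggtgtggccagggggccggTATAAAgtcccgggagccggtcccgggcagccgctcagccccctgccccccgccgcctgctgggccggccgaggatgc

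The share of IGF axis genes with a Pol II peak was near that of all protein-coding genes in both lists. In the OSS_128167 list 4 of 9 members had a peak inside or within 5 kb (44.4%, exact 95% interval 13.7 to 78.8), against 46.7% of all protein-coding genes. In the untreated list 0 of 9 had one, against 2.71%. The 4 members were Igf1, Igf1r, Igfbp2 and Igfbp4, with 8 peaks in all, and the other 5 had no peak in either list. None of the 8 passed an FDR limit of 0.05 on the authors' values, a limit at which OSS_128167 peaks marked 15.6% of protein-coding genes and untreated peaks 0.142%. Longer genes offer more room for a peak, and among protein-coding genes within 20% of the length of each member the share with a peak averaged 52.3% for OSS_128167 and 3.21% for untreated peaks. The share of members with a peak in the OSS_128167 list was thus near the background on either measure. For untreated peaks the length-matched shares, summed over the 9 members, came to 0.289 members, so 0 of 9 was near the background too. For any gene, the share of cells that use it and the amount of Pol II per cell cannot be told apart in such data.

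No member had a peak at either of its ends. Within 1000 bp of a gene boundary 0 of 9 members had a peak in the OSS_128167 list, against 14.1% of protein-coding genes. In the untreated list it was 0 of 9, against 0.393%. The exact interval for 0 of 9 runs from 0 to 33.6% and holds both backgrounds. So few genes cannot tell these counts from the background. For the 17492 protein-coding genes whose strand the RefSeq start table gives, the OSS_128167 list had a peak within 1000 bp of the 5′ boundary at 5.15% and of the 3′ boundary at 11.3%. The corresponding shares in the untreated list were 0.183% and 0.303%. Over the 5 kb beyond the gene, the OSS_128167 list had a peak downstream of 20.4% of these genes and upstream of 8.01%. Of the members 2 of 9 had a downstream peak in that list, Igf1 and Igfbp4, and 1 of 9 an upstream one, Igfbp2.

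**Figure D1:**
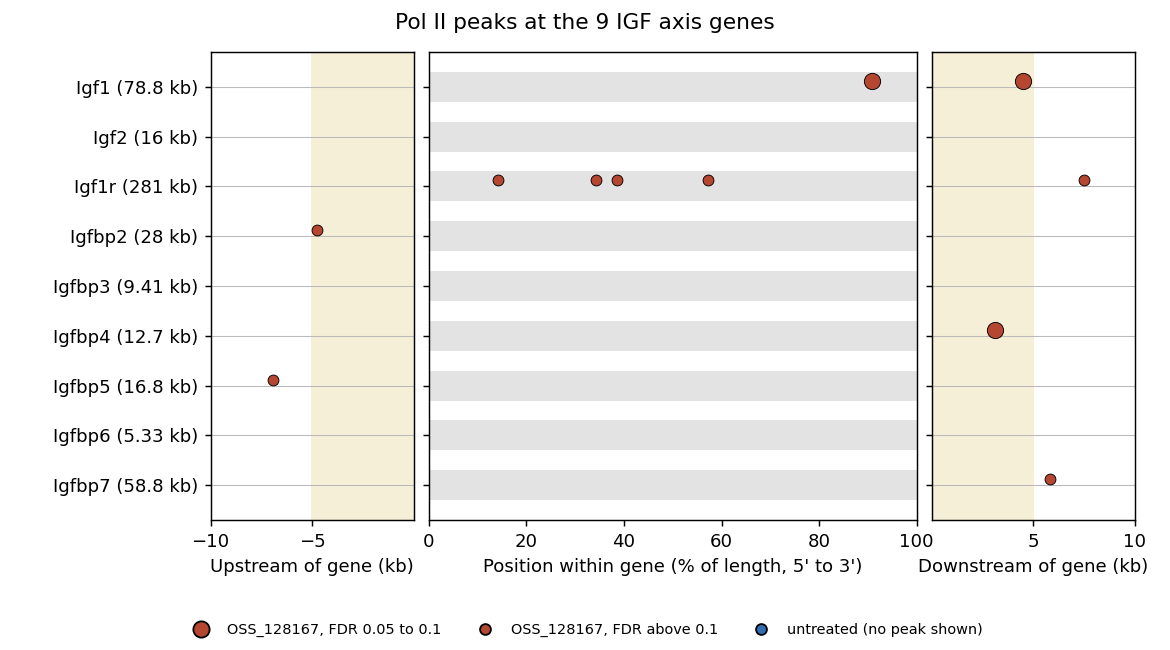
Peaks at each of the 9 genes, drawn 5′ to 3′, with the gene scaled to 100% of its length (grey) and flanks of 10 kb on either side in kb, of which the shaded 5 kb count as assigned. Red points are OSS_128167 peaks, and no untreated peak lies in the range shown; the larger points, at Igf1 and Igfbp4, have an FDR between 0.0507 and 0.0664.

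Among the ligands, Igf1 had peaks only toward and beyond its 3′ end, and Igf2 had none. Igf1 spans 78.8 kb (chromosome 10, 87858265 to 87937047, plus strand). Its OSS_128167 peak inside the gene was centred at 90.8% of the length, was 249 bp long and had a fold of 3.11, a pileup of 12 and an FDR of 0.0664. A second peak of 245 bp lay 4.48 kb downstream, with a fold of 3.19, a pileup of 12 and an FDR of 0.0522. Fold is the authors' enrichment of a peak over background in its own list, and pileup is the height of signal there. Both peaks had a higher pileup than 89.5% of the list, and folds above 68.0% and 70.6% of it, and the first covered 0.316% of the gene. Of 1378 protein-coding genes within 20% of the length of Igf1, 22.5% had more peaks and 16.3% had the same number. The median covered share of those genes was 0.332%. The nearest untreated peak to Igf1 lay 513 kb upstream.

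Igf2 (chromosome 7, 142650768 to 142666816, minus strand) is an imprinted gene of fetal growth with several promoters. Neither list had a peak over its 16.0 kb or within 5 kb. The nearest OSS_128167 peak lay 28.4 kb upstream, with a fold of 2.52 and an FDR of 0.676, and the nearest untreated peak 36.4 Mb downstream, with a fold of 3.0 and an FDR of 1. Its antisense neighbour Igf2os and Ins2, an insulin gene beside it, had no peak within 5 kb in either list. H19, the imprinted non-coding RNA gene of the same locus, had 2 OSS_128167 peaks, with a highest fold of 1.87 and an FDR of 0.966, and 0 untreated peaks. Th and Mrpl23, further neighbours, had no peak in either list.

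The receptor gene Igf1r had the most peaks of the 9, all of them inside the gene and none past the FDR limit of 0.05. Igf1r spans 281 kb (chromosome 7, 67952257 to 68233668, plus strand), and its 4 OSS_128167 peaks were centred at 14.1%, 34.3%, 38.5% and 57.2% of its length. Their folds were, in that order, 2.52, 2.87, 3.08 and 2.71, above 19.7%, 45.3%, 66.4% and 35.6% of the list. The FDR was lowest at the third, 0.191, and 0.377 to 0.676 at the others. Their pileups were 6 to 8, against a list median of 8. The peaks covered 0.454% of the gene, and the first lay 39.5 kb from the transcript start. Another peak, 7.49 kb downstream and so not assigned, had a fold of 3.23 and an FDR of 0.159. Among 376 protein-coding genes within 20% of its length the median was 3 peaks (quartiles 2 and 5), 92.8% had at least 1, and the median covered share was 0.324%. Its number of peaks lay inside the spread of genes of its length. Of those genes 33.0% had a peak past the FDR limit of 0.05, and Igf1r had 0. The nearest untreated peak lay 2.28 Mb downstream.

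Of the binding proteins, Igfbp4 and Igfbp2 each had 1 peak outside the gene, and the other 4 had none within 5 kb. Igfbp4 encodes a binding protein that mainly restrains IGF action and is cut by the protease PAPP-A. Its OSS_128167 peak lay 3.13 kb downstream of the gene (chromosome 11, gene 99040005 to 99052655, plus strand), was 345 bp long and had a fold of 3.31, the highest of the 8, and a pileup of 11. Its FDR was 0.0507 (p-value 2.03e-05), just outside the limit, since the largest p-value that passed it in that list was 1.97e-05. The fold exceeded that of 82.3% of the list, and no other annotated gene overlapped the peak. The nearest untreated peak lay 496 kb upstream, in Ikzf3.

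Igfbp2 and Igfbp5 lie next to each other on chromosome 1 and converge on their 3′ ends. Both are made by osteoblasts, and Igfbp5 is among the binding proteins held in bone matrix. The Igfbp2 peak (gene 72824480 to 72852474, plus strand) lay 4.78 kb upstream, inside the non-coding RNA gene Gm30847, and had a fold of 2.44, the lowest of the 8, and an FDR of 0.496. Only part of the 233 bp peak lay within the 5 kb window. Igfbp5 (72858065 to 72874865, minus strand) had no peak within 5 kb. Its nearest OSS_128167 peak lay 6.92 kb upstream, with a fold of 2.9 and an FDR of 0.29. For both genes the nearest untreated peak was the same one, 714 kb from Igfbp2 and 692 kb from Igfbp5, with an FDR of 1.

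Igfbp3, Igfbp6 and Igfbp7 had no peak in either list within 5 kb. Igfbp3 (chromosome 11, 7206086 to 7215498, minus strand) encodes the main carrier of IGFs in blood. Its nearest OSS_128167 peak was 31.8 kb away, in Adcy1, the greatest such distance among the 9. Igfbp6 (chromosome 15, 102144186 to 102149512, plus strand) encodes a binding protein that prefers IGF-2, and its nearest OSS_128167 peak lay 23.9 kb upstream, in Spryd3. Igfbp7 (chromosome 5, 77349240 to 77408045, minus strand) encodes a secreted protein of low affinity for IGFs. It spans 58.8 kb. Of 1652 genes within 20% of its length, 63.5% had at least 1 OSS_128167 peak inside or within 5 kb and 2.48% at least 1 untreated peak. The nearest OSS_128167 peak, 5.82 kb downstream, lay inside Polr2b, which overlaps the 3′ end of Igfbp7 and encodes a Pol II subunit. The nearest untreated peaks to these 3 genes lay 890, 728 and 451 kb away, in the same order of genes.

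**Figure D2:**
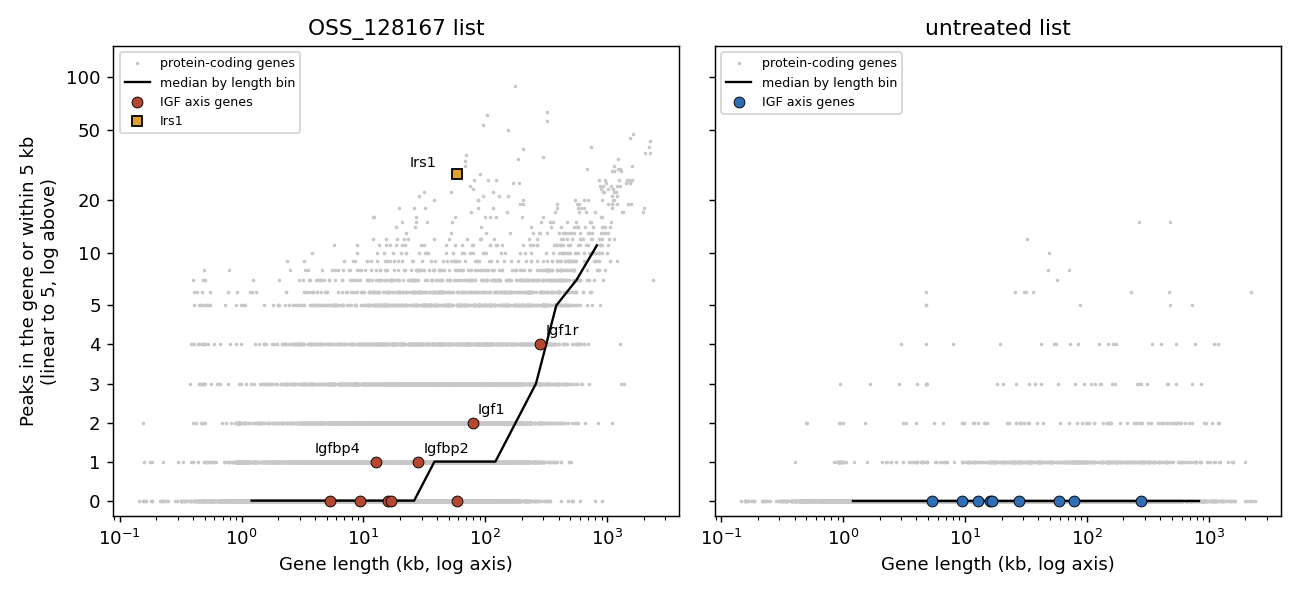
Number of peaks in a gene or within 5 kb of it against gene length (log axis) for all protein-coding genes (grey), with the OSS_128167 list on the left and the untreated list on the right; the line joins medians of length bins. Igf1r with 4 peaks and Igf1 with 2 sit near the line, whereas Irs1, a signalling adaptor of 58.3 kb, has 28; all 9 members are at 0 in the untreated list.

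No peak lay at a listed transcript start of the members. The RefSeq start table holds 13 starts for the 9 genes, 4 of them for Igf2 and 2 for Igfbp2. The 5′ boundaries of Igf1, Igfbp3 and Igfbp4 lie upstream of their listed start, so further starts of these genes were not examined. A peak overlapped 0 of these 13 windows of 300 bases in the OSS_128167 list, against 2.37% of the windows of protein-coding genes, and 0 in the untreated list, against 0.0376%. At so low a background, 0 of 13 is near it. The distance to the nearest OSS_128167 peak ran from 4.78 kb at Igfbp2 to 54.5 kb at Igf1, with a median of 28.4 kb, against 23.6 kb over all 21263 listed starts. The 4 starts of Igf2, 28.4 to 37.7 kb from the same peak, each enter this median, so it is not a median over genes. To the nearest untreated peak the distance ran from 451 kb at Igfbp7 to 36.4 Mb at Igf2, with a median of 742 kb, against 1560 kb over all starts.

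**Figure D3:**
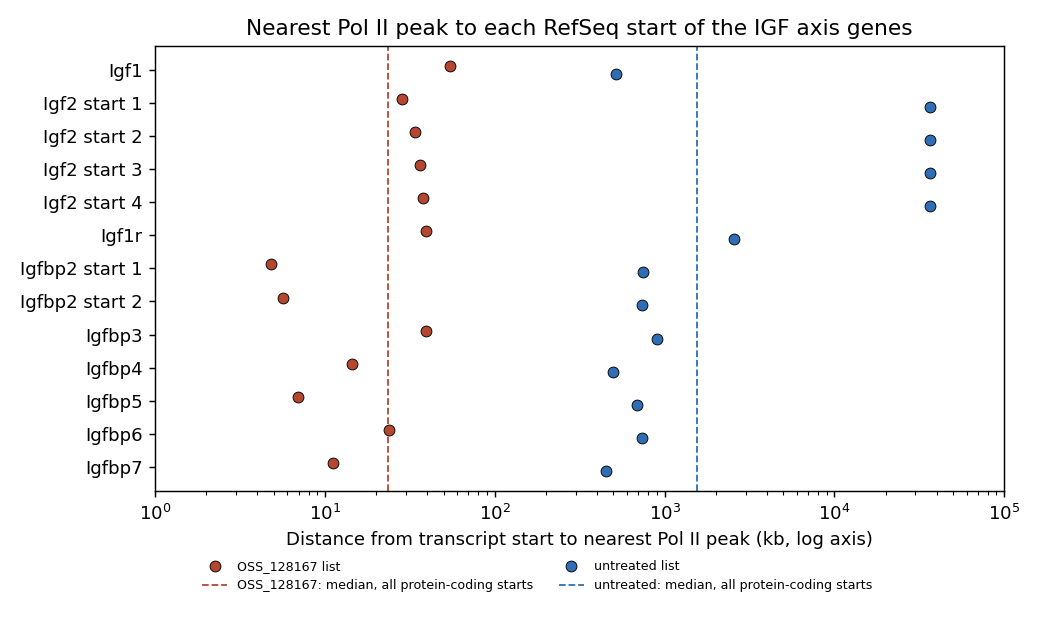
Distance in kb (log axis) from each of the 13 listed RefSeq starts to the nearest peak of the OSS_128167 list (red) and of the untreated list (blue), with the medians over all protein-coding starts as dashed lines. The shortest of the 13 distances is 4.78 kb to an OSS_128167 peak and 451 kb to an untreated one.

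The letters at these starts were searched on both strands for motifs of AP-1 and of core promoters. The AP-1 letters, searched as TGANTCA with any base at N, were found in 2 of the 13 windows, against 6.99% of all windows. The match at Igf1, from base -37, was TGAATCA, and that at the second Igfbp2 start, from base -39, was TGAGTCA. The AP-1 site is usually given with G or C at N, as at Igfbp2 and not at Igf1. The GC box, GGGCGG, was found in 5 of 13, against 46.2%, with 2 at Igf1r, from bases -43 and -26, and the CCAAT box in 3 of 13, against 38.2%. The TATA box, searched as TATAAA, was found in 2 of 13, against 12.6%, among them Igfbp4 from base -28. The 13 windows had a median GC content of 63.3%, against 56.3% in all, and Igf1r was highest at 76.0%. Among all windows of protein-coding genes with the AP-1 letters, 1.95% were overlapped by an OSS_128167 peak and 0.0673% by an untreated one. A match describes these letters and not a bound site.

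The wider pathway was read from 6 lists of 64 further genes, of which 40 had an OSS_128167 peak inside or within 5 kb (62.5%, against 46.7% of protein-coding genes) and 2 an untreated one (3.12%, against 2.71%). Gene-end peaks were found at 21 of the 64 in the OSS_128167 list (32.8%, against 14.1%) and at 0 in the other (against 0.393%). Past the FDR limit of 0.05 there were 7 for OSS_128167 (10.9%, against 5.22%) and 0 for untreated peaks (against 0.0594%). Sirt6 and the AP-1 genes form 1 of the 6 lists, whose peaks were known when it was drawn up and which held 5 of these 7 genes. Without that list 34 of 57 genes had an OSS_128167 peak (59.6%), 15 a gene-end peak (26.3%), and 2 a gene-end peak past the FDR limit (3.51%). The shares of the wider lists, here and below, were not matched for gene length, and longer genes more often had an OSS_128167 peak.

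The remaining ligands, binding proteins and receptors had a peak at 3 of 8 in the OSS_128167 list (37.5%, against 46.7%) and a gene-end peak at 0 of 8 (against 14.1%). Insr, which encodes the insulin receptor, had 3 peaks inside its 129 kb, the strongest with a fold of 3.38 and an FDR of 0.0794. Igf2r, whose product clears IGF-2 from the cell surface, had 3, with a highest fold of 2.88 and an FDR of 0.232. Igfbp1, Igfbpl1, Insrr, Ins1 and Ins2 had none. In the untreated list 0 of these 8 had a peak, against 2.71%.

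Proteases that cut binding proteins, and their regulators, had a peak at 5 of 11 (45.5%, against 46.7%) and a gene-end peak at 2 of 11 (18.2%, against 14.1%) in the OSS_128167 list, both near the background. In the untreated list 0 of 11 had a peak, against 2.71%. Pappa, which encodes the protease PAPP-A of Igfbp4, had 2 peaks inside its 233 kb, with a highest fold of 2.83 and an FDR of 0.272. Mmp2, a matrix metalloproteinase gene named after its values were seen, was the 1 gene of the list with a peak past the FDR limit (9.09%, against 15.6%). That peak was 851 bp long, lay 1497 bp outside the gene, and had a fold of 4.66 and an FDR of 6.4e-05.

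Receptor adaptors and kinases had a peak at 16 of 22 in the OSS_128167 list (72.7%, against 46.7%), a gene-end peak at 7 of 22 (31.8%, against 14.1%), and a peak past the FDR limit at 9 of 22 (40.9%, against 15.6%). In the untreated list 1 of 22 had a peak (4.55%, against 2.71%) and 0 a gene-end peak. Irs1 stood apart from the members by its number of peaks. It encodes the adaptor that links the IGF-1 and insulin receptors to PI3K, and spans 58.3 kb (chromosome 1, 82233105 to 82291439, minus strand). The OSS_128167 list had 28 peaks there, 26 inside the gene and 2 downstream, which covered 27.6% of it. Of 1655 protein-coding genes within 20% of its length, 2 had as many or more, and the median was 1 peak and 0.38% covered. Its peaks had folds of 2.3 to 4.88 and lengths of 226 to 1891 bp, and 11 passed the FDR limit, the lowest FDR being 1.79e-06. Of these 11, 10 lay nearer to the 5′ than to the 3′ end of the gene and 1 nearer to the 3′ end. The peak nearest to the transcript start lay 3.44 kb inside the gene, so the start itself had no peak. The untreated list had 0 peaks at Irs1.

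**Figure D4:**
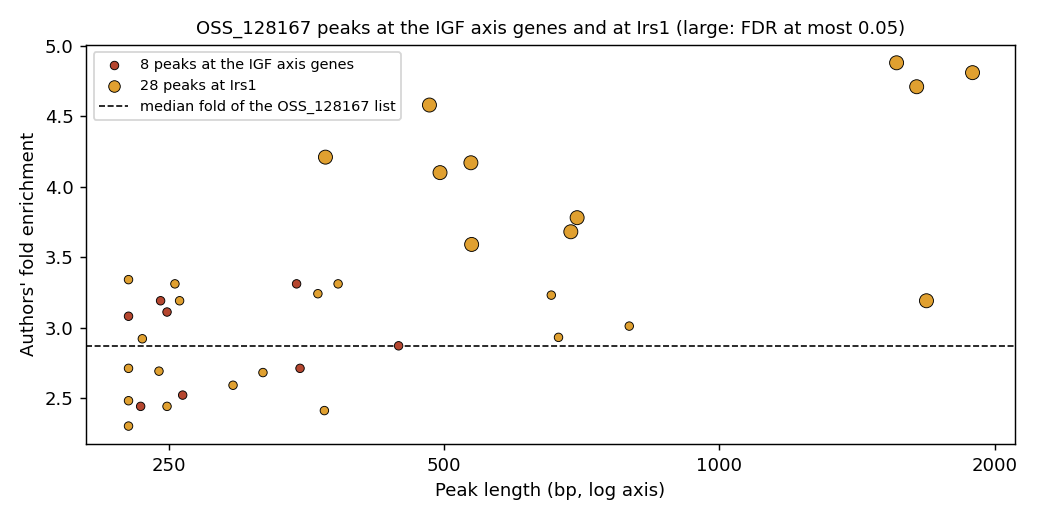
Fold enrichment, as deposited, against peak length (log axis) for the 8 OSS_128167 peaks at the IGF axis genes (red) and the 28 at Irs1 (yellow); large points have an FDR no higher than 0.05, and the dashed line is the list median of 2.87. The red points end at a fold of 3.31 and a length of 446 bp, while 11 Irs1 peaks have a higher fold and 13 are longer.

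The 6 genes of this list with no OSS_128167 peak also had no untreated one. Irs2, the second main adaptor, and Akt1, which encodes a central kinase of the pathway, were among them, beside Akt2, Mtor, Tsc1 and Inppl1.

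FOXO factors and genes that respond to insulin signalling had a peak at 6 of 9 (66.7%, against 46.7%) and a gene-end peak at 4 of 9 (44.4%, against 14.1%) in the OSS_128167 list. Ddit4, an inhibitor of mTORC1 that also responds to stress, was the 1 gene of this list with a gene-end peak past the FDR limit, with a fold of 4.58 and an FDR of 1.26e-05, and 71.9% of its 2.1 kb was covered. Foxo1 and Foxo3 had 3 and 5 peaks, none at that limit. In the untreated list 1 of these 9 had a peak (11.1%, against 2.71%), Sesn1, with a fold of 3.54 and an FDR of 1. The list of Igf2 RNA-binding protein genes and neighbours of Igf2 had an OSS_128167 peak at 4 of 7 (57.1%, against 46.7%). A gene-end peak was found at 2 of 7 (28.6%, against 14.1%). Of this list, Igf2bp1, Igf2bp2 and Igf2bp3 had 5, 3 and 3 OSS_128167 peaks, none past the FDR limit. They span 48.8, 104 and 130 kb.

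Sirt6 had no peak in either list, while the AP-1 genes set beside it had many OSS_128167 peaks and 0 untreated ones. In the OSS_128167 list 6 of the 7 genes of this list had a gene-end peak (85.7%, against 14.1%), and 5 had one past the FDR limit (71.4%, against 5.22%). Junb (fold 9.76) and Fos (7.24) were covered over 100% of their length. The strongest gene-end peak had a fold of 4.76 at Jund and of 3.91 at Fosl2, whose 12 peaks had a highest fold of 3.97. Jun, which encodes c-Jun, had 5 peaks, a highest fold of 3.9 with an FDR of 0.00116, and 45.1% of its length covered. Of these genes, Fos, Jun and Junb are known to respond within minutes to stimuli, and such a response was not tested here.

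**Figure D5:**
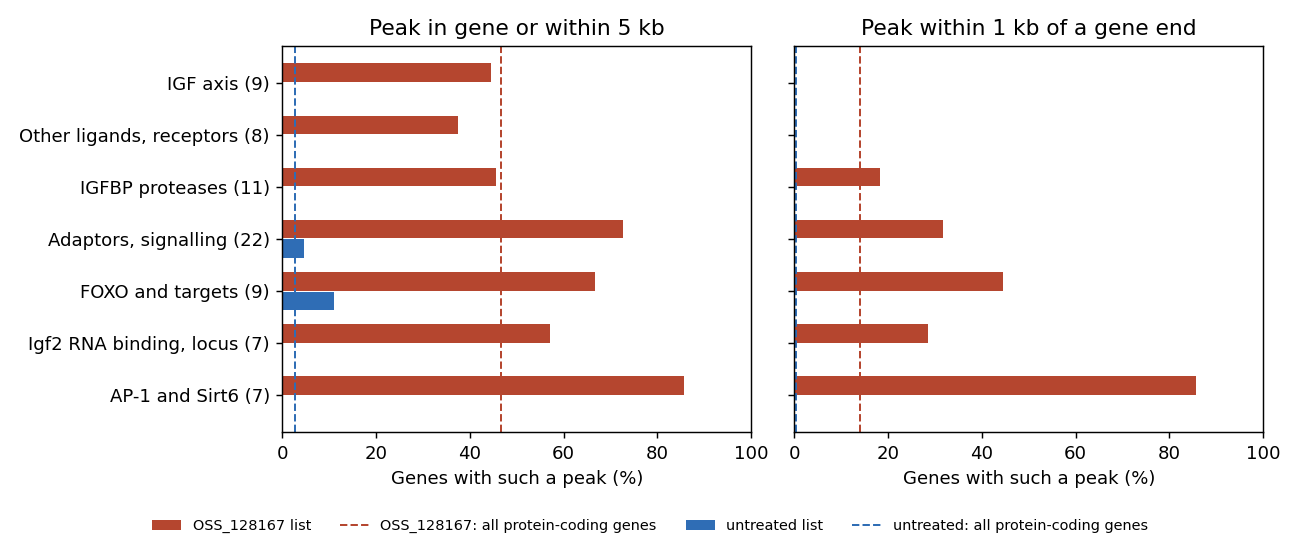
Share of genes (%) with a peak in the gene or within 5 kb (left) and with a peak within 1 kb of a gene end (right), for the 9 members and the 6 wider lists (number of genes in parentheses); bars are red for the OSS_128167 list and blue for the untreated list, and dashed lines give the shares over all protein-coding genes. The members reach 44.4% on the left and 0 on the right in the OSS_128167 list, and on both sides they are at 0 among untreated peaks.

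As a check of the cells, 6 of 9 osteoblast markers had an OSS_128167 peak inside or within 5 kb (66.7%, against 46.7% of protein-coding genes) and 2 of 9 an untreated one (22.2%, against 2.71%). Past the FDR limit these were 5 (55.6%, against 15.6%) and 0 (against 0.142%). Col1a1 and Col1a2 were covered over 98.2% and 97.4% in the OSS_128167 list, and Alpl, Bglap and Ibsp, markers of mature osteoblasts, had no peak in either list. Markers of other cell types had OSS_128167 peaks at 3 of 5 macrophage, 1 of 4 adipocyte, 2 of 3 chondrocyte and 2 of 3 endothelial genes, together 8 of 15 (53.3%, near the 46.7% of protein-coding genes). Untreated peaks were found at 1 adipocyte gene and at 0 of the other 3 lists, together 1 of 15 (6.67%, against 2.71%). Past the FDR limit, 3 of these 15 genes had an OSS_128167 peak inside or within 5 kb (against 15.6%), among them 2 of the 5 macrophage genes. A gene-end OSS_128167 peak past the limit was found at 2 of the 15, Cd68 and Sox9 (13.3%, against 5.22%). In the untreated list 0 of the 15 had a peak past it. The part of such cells in the values above was not tested. The OSS_128167 list held 40748 peaks, 6568 of them past that limit, and the untreated list 1694, 109 of them past it. Sequencing depth is unknown for both libraries, so the absence of untreated peaks at the IGF axis and a list with fewer peaks throughout cannot be told apart.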

How the data were processed

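The submitters' processing notes name fastp, BWA and mm10. The caller of the peaks and how it used the inputs are not given in these sources. The deposited lists, 1 per Pol II library, hold the position of each peak, the authors' fold enrichment (a linear ratio), p-value, FDR and pileup (a height of signal). The values of peaks were read within a list and never between lists. Neither of the 2 input libraries was analysed here. Lists carry no read totals, so depth is unknown.

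Gene boundaries were taken from RefSeq for GRCm38.p6, which mm10 corresponds to, and strand and starts from RefSeq start windows, which cover 17492 of the 21887 protein-coding genes. Peaks were assigned by an overlap of at least 1 bp. Gene-end peaks reach within 1000 bp of either boundary. Exact (Clopper-Pearson) intervals cover counting only. No test between conditions was run, since each had 1 library. On simulated intervals, counts differed from a direct search at 0 of 300 genes. Counts used pandas 2.3.3 and numpy 2.4.6 under Python 3.11.15, intervals scipy 1.17.1, and plots matplotlib 3.10.9.

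The members and gene lists were chosen with earlier results of these data known. All members are named. Of the wider lists, genes were named for a gene-end peak at an FDR of at most 0.05, up to 4 per list by fold, and Insr, Igf2r, Irs1, Irs2, Akt1, Pappa, Sirt6 and Jun whatever their values; others were named after their values were seen. A gene of the adaptor and kinase list enters its counts and is otherwise not reported here. No member had 5 or more peaks and no other protein-coding gene shared a member's peak, so the rules for similar and neighbouring genes named none. Alternatives were stricter limits on FDR or p-value, other overlap rules, other windows and genes of like length.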

Additional observations from a re-analysis of the deposited data

How the results depend on the processing

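The number of members with an OSS_128167 peak depended on the window and on the limit for a peak. With peaks of an FDR of at most 0.05 it was 0 (against 15.6%), with 0 peaks, against 4 members and 8 peaks in the full list. With gene boundaries alone, or with 1 kb beyond them, it was 2 members (22.2%, against 34.4% and 37.8% of protein-coding genes in that order) and 5 peaks, since the peaks at Igfbp2, Igfbp4 and 1 of Igf1 lie farther out. With 10 kb it was 6 members (66.7%, against 53.9%) and 11 peaks, and with a p-value of at most 0.001 it was 3 members (33.3%, against 39.0%) and 6 peaks. Requiring at least 50% of the peak, or its centre, inside left 4 and 8. With a gene end of 2000 bp, the count of members with a peak at a gene end stayed 0 in both lists. With 10 kb, the untreated list still had 0 members and 0 peaks. Stricter limits, stricter overlap rules and narrower windows or ends can only lower a count, so they could not change these counts of 0. The covered share of Igf1r was 0.362% at a p-value of at most 0.001, and that of Igf1 and Igf1r was 0 at an FDR of at most 0.05. No paired analysis was possible because each condition had 1 library.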
